A study of Homo sapiens with 6 samples.

Results

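Granule genes of eosinophils and mast cells were followed in TF-1, a human leukaemia line that needs a cytokine to grow, on arrays of cells carrying human PRL-3 or a control vector. The members were 10 genes chosen by name: PRG2, PRG3, EPX, CLC, RNASE2, RNASE3, CPA3, HDC, TPSAB1 and HPGDS. All probe sets annotated to one of these symbols were taken, which gave 11 probe sets for 9 genes, among 21062 probe sets with a gene symbol and 28869 in the whole table. Of the 11, 8 named a single gene and 3 were shared with other genes. RNASE3 had no probe set named here and was not analysed here.

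The series asks what PRL-3 does in the making of leukaemia. PRL-3 is a protein tyrosine phosphatase encoded by PTP4A3. The control group (3 arrays, numbered 1 to 3) was TF-1 with the pEGFP vector, and the PRL-3 group (3 arrays, numbered 4 to 6) was TF-1 with hPRL3. Both groups were kept with human IL-3 at 5 ng/ml in RPMI medium holding 10% fetal bovine serum, and the labels name no other agent, time or clone. Whether the 3 arrays of a group stand for separate cultures or transfections is not stated in the labels. The p-values therefore cover the spread among these 6 arrays alone, and that spread may be technical. All levels below are log2 of the deposited intensity, and all differences are PRL-3 minus control on that scale.

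Eosinophils and mast cells are white cells that store ready-made proteins in large granules and release them on stimulation. The eosinophil granule holds major basic protein, a peroxidase and ribonucleases. The mast cell granule holds proteases and histamine on a proteoglycan core. Both lineages arise from progenitors that carry receptors for IL-3 or stem cell factor, and GATA factors are known to take part in their formation.

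Of the 11 probe sets, 1 rose with PRL-3 (PRG2), 1 fell (CPA3) and 9 did not pass the test at adjusted p 0.05 (limma, Benjamini-Hochberg over all 21062 probe sets with a symbol). Among all 21062, 4.39% were higher, 3.20% lower and 7.59% called in either direction. The median difference of the 11 was -0.04, and that of all probe sets with a symbol was -0.02. By a count in which the brightest probe set stood for each gene, 0 of 9 genes were higher and 1 was lower. The brightest probe set listing PRG2 is the one it shares with SLC43A3, so that count leaves out the rise of PRG2's own probe set. A gene counted through any of its probe sets gave 1 higher and 1 lower.

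**Figure D1:**
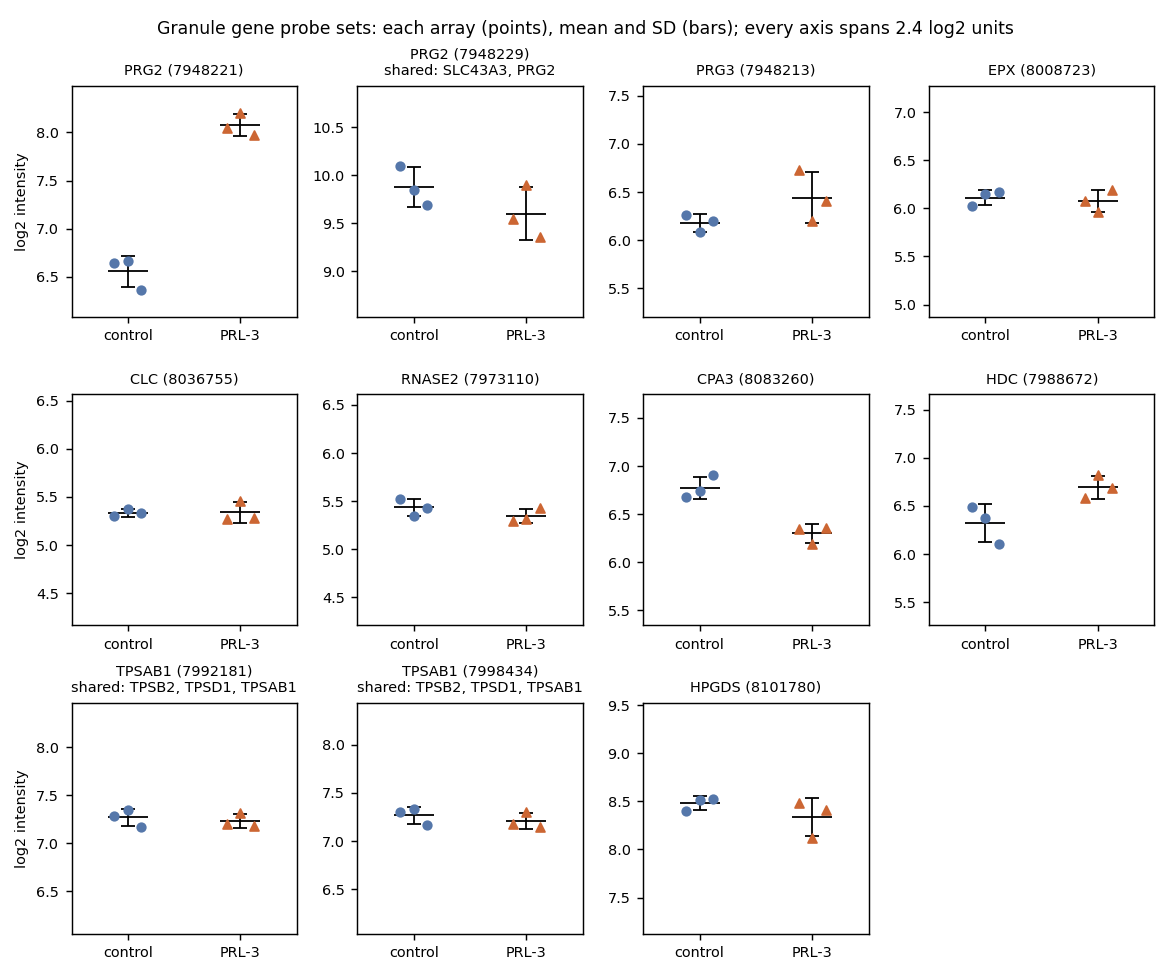
Log2 intensity of the 11 granule gene probe sets on each array, with 1 panel per probe set (circles, 3 control arrays; triangles, 3 PRL-3 arrays; bars, mean and SD). The 3 PRL-3 arrays of the PRG2 panel lie between 7.98 and 8.20, above all control arrays, those of CPA3 lie below all control arrays, and most other panels overlap.

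As a check of the labels, the probe set of PTP4A3 (8148501) read 7.92, 8.03 and 7.97 in the control arrays and 10.81, 10.93 and 10.79 in the PRL-3 arrays. The arrays had medians of 89.8 to 92.9 in intensity units. Pearson r over all probe sets was 0.987 to 0.996 for arrays of 1 group and 0.980 to 0.989 for arrays of different groups, which is a description. TF-1 is grown on IL-3 and is known as a CD34-bearing line with red cell features. Of 13 markers of the line 12 had a probe set of their own, and all 12 read above the 95th percentile of 357 olfactory receptor probe sets (6.34). Olfactory receptors are a family that blood cells are not known for. Probes differ in how well they bind, so such a position is a description and no detection call. Among all probe sets with a symbol 4.39% were higher and 3.20% lower. In the red cell list 2 of 16 genes were higher with PRL-3 and 7 lower. Its summed intensity was 16161.5 to 16596 in control and 13189 to 13296 in PRL-3 arrays. Such a sum is weighted to the brightest gene, TFRC, whose mean was 12.73 in control and 12.21 in PRL-3 arrays. The 2 genes that were higher, HBE1 and CA2, rose by 1.02 and 0.90. Among the 7 that were lower, the largest differences were those of HBB (-2.15), ALAS2 (-1.17) and HBD (-1.07). The part of the red cell list in the results below was not tested.

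The proteoglycan genes PRG2 and PRG3 lie side by side in the RefSeq gene order. PRG2 encodes major basic protein, the toxic cationic protein of the eosinophil granule core. Its own probe set (7948221) read 6.64, 6.66 and 6.37 in control arrays 1, 2 and 3 and 8.04, 8.20 and 7.98 in PRL-3 arrays 4, 5 and 6. All PRL-3 arrays were above all control arrays, as they were for 11.9% of all probe sets with a symbol, and the gap between the groups was wider than the range within either. The mean rose from 6.56 ± 0.16 to 8.07 ± 0.12 (SD, n = 3 each). The difference of 1.52 ± 0.10 (SE; 95% interval 1.28 to 1.75) was 2.87-fold and passed in limma (adjusted p = 0.000253). The control mean lies just over 6.42, the 95th percentile of the olfactory receptor probe sets in the control arrays. Control array 3 reads under it, so the fold is that of the probe signal and not of the RNA. Permuting the group labels over the 6 values exactly, two-sided, gives p = 0.1, and 3 arrays against 3 allow no smaller one. Over the other settings the difference ran from 1.37 to 1.57. It passed in 18 of 19, and the exception was the unequal-variance test of each probe set on its own (adjusted p = 0.0969, with a range over all settings of 9.39e-07 to 0.0969).

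The second probe set that lists PRG2 (7948229) also lists SLC43A3, a membrane transporter gene that follows PRG2 in the gene order. It read 10.10, 9.85 and 9.69 in control and 9.55, 9.90 and 9.36 in PRL-3 arrays. These groups overlapped. The difference of -0.28 ± 0.15 (SE) did not pass (adjusted p = 0.380, limma), and its 95% interval of -0.63 to 0.07 lies outside that of PRG2's own probe set. How much of this shared signal comes from PRG2 cannot be told from the table.

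PRG3 encodes a homologue of major basic protein. Its probe set (7948213) read 6.26, 6.08 and 6.20 in control and 6.73, 6.20 and 6.40 in PRL-3 arrays. PRL-3 array 5 lay among the control values, and array 4 was the highest of the 6. The difference of 0.26 ± 0.13 (SE; 95% interval -0.04 to 0.56) did not pass (adjusted p = 0.327, limma). Without PRL-3 array 4 it was 0.12, and without PRL-3 array 5 it was 0.38. With array weights it passed at 0.44 (adjusted p = 0.0127, in a range of 0.0127 to 1 over all settings). The largest weight of each group was that of control 2 (5.04) and of PRL-3 4 (1.70). For PRG3 these are the lowest control array and the highest PRL-3 array. The other protein-coding neighbours of PRG2 with a named probe set did not pass either: P2RX3 differed by 0.00, RTN4RL2 by 0.12, SLC43A1 by -0.15, and the probe sets of SSRP1 by 0.16 and -0.04. These neighbours were looked up after the value of PRG2 was seen.

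EPX encodes eosinophil peroxidase, which makes hypohalous acids from hydrogen peroxide. Its probe set (8008723) read 6.02, 6.15 and 6.17 in control and 6.08, 5.96 and 6.19 in PRL-3 arrays. The groups overlapped, with a difference of -0.04 ± 0.08 (SE; 95% interval -0.23 to 0.16; adjusted p = 0.882, limma). CLC encodes galectin-10, the protein of the Charcot-Leyden crystals left by eosinophils and basophils. Its probe set (8036755) read 5.30, 5.38 and 5.33 in control and 5.27, 5.46 and 5.28 in PRL-3 arrays. The difference of 0.00 ± 0.08 (SE) had a 95% interval of -0.17 to 0.18 (adjusted p = 0.992, limma), and the groups overlapped.

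RNASE2 encodes eosinophil-derived neurotoxin, a secreted ribonuclease. Its probe set (7973110) read 5.52, 5.35 and 5.43 in control and 5.30, 5.32 and 5.43 in PRL-3 arrays. These groups overlapped too, and the difference of -0.09 ± 0.08 (SE; 95% interval -0.26 to 0.09) did not pass (adjusted p = 0.626, limma). The probe sets of EPX, CLC and RNASE2, and that of PRG3, had mean levels under 6.34, the 95th percentile of the olfactory receptor probe sets. For these 4 the deposited table gives no detection call, so a change at levels that the probes cannot read is not seen here. The test of the difference between PRG2 and these genes was not made, since a difference between probes also depends on how each probe responds.

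RNASE1, a broadly secreted ribonuclease of the same family that precedes RNASE3 and RNASE2 in the gene order, fell. It read 10.64, 10.65 and 10.41 in control and 9.60, 9.58 and 9.46 in PRL-3 arrays. The groups did not overlap. Its level dropped by 1.02 ± 0.09 on the log2 scale (SE; adjusted p = 0.000747, limma), which was 2.03-fold. RNASE6, another neighbour, differed by -0.17 (adjusted p = 0.586, limma), and RNASE4 had no probe set named here. Near CLC, LGALS14 differed by 0.02 (adjusted p = 0.964, limma).

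**Figure D2:**
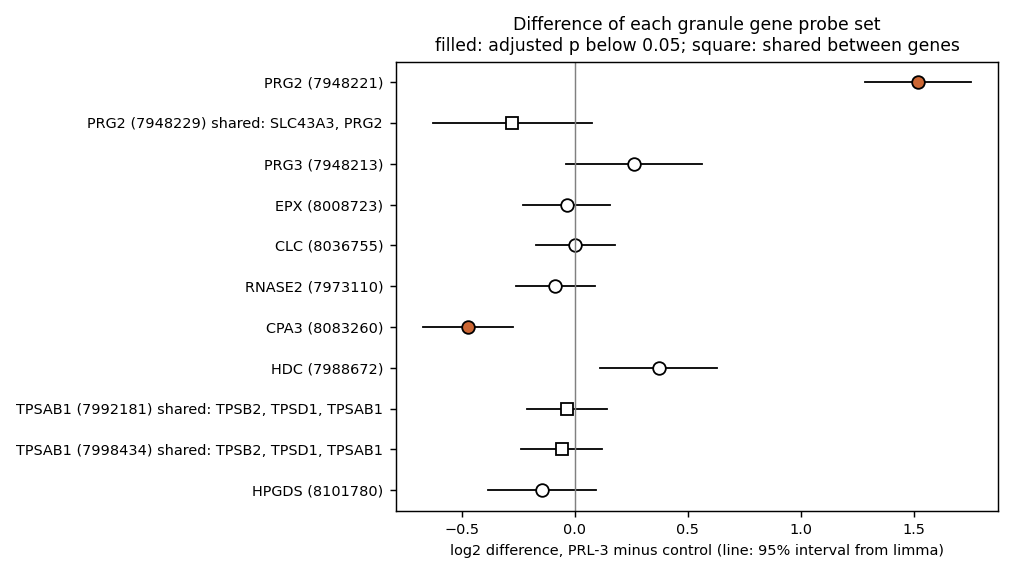
Log2 difference, PRL-3 minus control, of each granule gene probe set with its 95% interval from limma (filled, adjusted p below 0.05; squares, shared between genes). PRG2's own probe set stands at 1.52 and CPA3 at -0.47. The interval of HDC (0.11 to 0.63) excludes 0 although HDC did not pass, and the intervals of all other probe sets include 0.

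Among the mast cell genes, CPA3 encodes carboxypeptidase A3, a protease stored with heparin in mast cell granules. Its probe set (8083260) read 6.68, 6.74 and 6.90 in control arrays 1, 2 and 3 and 6.35, 6.19 and 6.36 in PRL-3 arrays 4, 5 and 6. All PRL-3 arrays were below all control arrays, as they were for 12.4% of all probe sets with a symbol. The mean went from 6.77 ± 0.12 to 6.30 ± 0.10 (SD, n = 3 each). CPA3 fell by 0.47 ± 0.09 on the log2 scale (SE; 95% interval -0.67 to -0.27), with adjusted p = 0.0165 by limma. Its PRL-3 mean lies under 6.32, the 95th percentile of the olfactory receptor probe sets in the PRL-3 arrays, so the size is that of the probe signal and no fold of the RNA is given. Without control 2, PRL-3 4 or PRL-3 6 the difference was -0.49, -0.50 and -0.50 and did not pass (adjusted p = 0.0696, 0.0590 and 0.0503, limma). It also missed the threshold in the unequal-variance test (0.169) and with a minimum fold of 1.5 (1), in a range of 0.000353 to 1 over all settings. Its next neighbour on one side, CPB1, which encodes another carboxypeptidase, differed by -0.04. Beyond CPB1, AGTR1 differed by -0.04 and ZIC1 by 0.07, and neither passed. On the other side GYG1 rose by 0.43 and HPS3 by 0.47 (adjusted p = 0.0222 and 0.00905, limma). HLTF, which lies between them, differed by 0.22 and did not pass.

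HDC encodes histidine decarboxylase, the enzyme that makes histamine. Its probe set (7988672) read 6.49, 6.38 and 6.10 in control and 6.58, 6.82 and 6.68 in PRL-3 arrays. All PRL-3 arrays were above all control arrays, and the gap between control 1 and PRL-3 4 was narrow. Groups that do not overlap were found for 24.4% of all probe sets with a symbol and for 3 of the 11 here (PRG2's own, CPA3 and HDC). The difference of 0.37 ± 0.11 (SE; 95% interval 0.11 to 0.63) did not pass (adjusted p = 0.0988, limma). Its control mean of 6.32 lies under 6.42, the 95th percentile of the olfactory receptor probe sets in the control arrays. Without control 3, the lowest array, the difference was 0.26. It passed with array weights at 0.27 (adjusted p = 0.0222, limma). It also passed with a covariate for the leading axis of spread inside the groups, an alternative chosen after seeing the data (adjusted p = 0.00295, limma). Weights and covariate were both estimated from these 6 arrays. The adjusted p ran from 0.00295 to 1 over all settings.

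TPSAB1 encodes alpha and beta tryptase, the main serine proteases of mast cells. Both of its probe sets (7992181 and 7998434) are shared with the tryptase genes TPSB2 and TPSD1, so none of the 3 can be read apart. The first read 7.29, 7.35 and 7.17 in control and 7.20, 7.32 and 7.18 in PRL-3 arrays. The values of the second were within 0.04 of it on every array, so it is no separate measurement of these near-identical genes. The differences were -0.04 ± 0.08 and -0.06 ± 0.08 (SE), with adjusted p = 0.874 and 0.772 by limma. The 95% intervals were -0.21 to 0.14 and -0.24 to 0.12. TPSD1's own probe set (7992191) differed by -0.03.

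HPGDS encodes the haematopoietic prostaglandin D synthase, which makes the mediator that mast cells release in allergy. Its probe set (8101780) read 8.40, 8.52 and 8.53 in control and 8.49, 8.12 and 8.41 in PRL-3 arrays. The groups overlapped, and PRL-3 array 5 was the lowest of the 6. The difference of -0.14 ± 0.10 (SE; 95% interval -0.38 to 0.09) did not pass (adjusted p = 0.528, limma). Without PRL-3 array 5 it was -0.03.

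**Figure D3:**
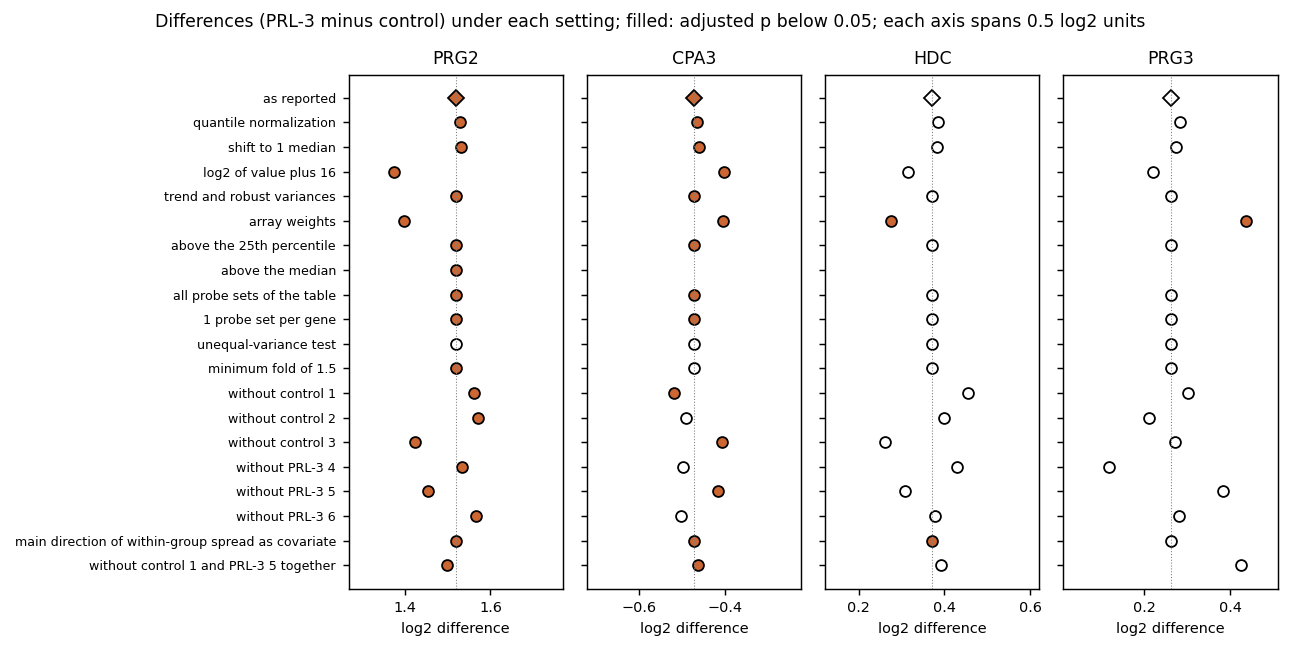
Log2 difference, PRL-3 minus control, of PRG2, CPA3, HDC and PRG3 under the reported setting (diamond) and each alternative (circles), filled where adjusted p was below 0.05; a missing point means that the probe set was not in that fit. PRG2 ran from 1.37 to 1.57, CPA3 from -0.52 to -0.40, HDC from 0.26 to 0.45 and PRG3 from 0.12 to 0.44.

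Of the 10 members 7 had a promoter in the RefSeq table used (GRCh38.p14). PRG2, EPX and TPSAB1 had no entry. The 250 bases before the annotated start are printed for CPA3, the member that fell, for HDC and PRG3, whose differences pointed up without passing, and for HPGDS. They are CPA3 at chr3:148865046-148865295 (plus strand), HDC at chr15:50265727-50265976 (minus strand), PRG3 at chr11:57381151-57381400 (minus strand) and HPGDS at chr4:94342837-94343086 (minus strand). Each is written 5′ to 3′ on the gene's strand, and capitals mark matches to a GATA word on either strand.
CPA3 promoter: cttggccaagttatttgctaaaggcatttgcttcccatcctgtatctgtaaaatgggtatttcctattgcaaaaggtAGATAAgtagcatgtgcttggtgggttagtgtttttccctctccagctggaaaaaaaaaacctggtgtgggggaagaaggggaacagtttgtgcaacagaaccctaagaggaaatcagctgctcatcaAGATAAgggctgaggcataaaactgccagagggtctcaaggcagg
HDC promoter: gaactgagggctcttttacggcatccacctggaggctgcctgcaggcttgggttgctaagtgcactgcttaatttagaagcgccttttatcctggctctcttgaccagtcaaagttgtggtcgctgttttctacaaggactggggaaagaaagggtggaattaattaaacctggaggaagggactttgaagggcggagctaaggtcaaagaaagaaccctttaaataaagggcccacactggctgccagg
PRG3 promoter: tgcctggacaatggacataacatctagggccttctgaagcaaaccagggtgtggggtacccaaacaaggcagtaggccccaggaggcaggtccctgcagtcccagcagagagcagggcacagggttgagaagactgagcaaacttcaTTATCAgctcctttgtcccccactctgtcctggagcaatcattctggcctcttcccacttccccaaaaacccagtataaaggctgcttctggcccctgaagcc
HPGDS promoter: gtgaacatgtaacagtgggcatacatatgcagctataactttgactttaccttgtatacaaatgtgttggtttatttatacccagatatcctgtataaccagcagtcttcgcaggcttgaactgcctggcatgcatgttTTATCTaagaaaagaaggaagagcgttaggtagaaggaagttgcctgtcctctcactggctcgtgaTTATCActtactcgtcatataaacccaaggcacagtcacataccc

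The GATA word searched was GATA with A or T before it and A or G after it, on both strands, and 22.3% of all 35116 windows of this length in the table held at least 1. CPA3 held 2, starting 173 and 45 bases before the start, HPGDS held 2, at 111 and 45 bases, PRG3 held 1 at 103 bases, and HDC held 0. CLC held 2 and RNASE2 held 0. The E-box CANNTG, found in 61.8% of windows, occurred 4 times in CPA3, 2 times in HPGDS, 1 time in HDC and 0 times in PRG3. Its special form CACGTG, which overlaps it by definition and stood in 6.35% of windows, was in none of these 4. The ETS-type word GAGGAA (23.6% of windows) occurred 1 time each in CPA3 and HDC and 2 times in CLC. The C/EBP-type word TTGCNNAA (9.05% of windows) occurred 3 times in CPA3 and 1 time each in RNASE2 and RNASE3. The TATA box TATAAA (10.7% of windows) stood 29 bases before the start in PRG3 and 28 bases before it in HPGDS, which held a second match on the opposite strand at 176 bases. A match of letters is a description of the window, not a bound site. Among the members that did not pass, the count of GATA words ran from 0 (HDC and RNASE2) to 2 (CLC and HPGDS), and CPA3, which fell, held 2.

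Genes of the wider mast cell, basophil and eosinophil programme were read from 4 lists of other granule and family genes, lipid mediator enzymes, receptors and transcription factors. These lists hold 74 genes, of which 67 had a probe set of their own. Of the 67, 9 rose, 1 fell and 57 did not pass, beside 4.39% higher and 3.20% lower among all probe sets with a symbol. The lists were chosen with earlier results of these data known, and each gene was read from its brightest probe set. The counts beside that share are therefore a description. All 10 that rose or fell lost their call in the unequal-variance test of each probe set on its own (adjusted p of 0.0811 for MS4A3 to 0.308 for ID2) and with a minimum fold of 1.5 (0.152 for RNASE1 to 1). In bulk RNA, more cells that express a gene and more RNA of it per cell cannot be told apart.

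Of 19 measured receptor and surface genes 5 rose, 0 fell and 14 did not pass, with a median difference of 0.08. Among all probe sets with a symbol 4.39% were higher and 3.20% lower. Since the list was chosen with earlier results known, its count is a description. KIT, the stem cell factor receptor on which mast cells depend, read 7.74, 7.81 and 7.55 in control and 8.80, 8.70 and 8.64 in PRL-3 arrays. The groups did not overlap, and KIT rose by 1.01 ± 0.09 (SE; adjusted p = 0.000808, limma). IL5RA, the receptor chain through which eosinophils receive interleukin-5, read 6.75, 6.70 and 6.39 in control and 7.47, 7.58 and 7.40 in PRL-3 arrays. It rose by 0.87 ± 0.11 (SE; adjusted p = 0.00313, limma), again with no overlap. Control array 3 of IL5RA reads under 6.42, the 95th percentile of the olfactory receptor probe sets in the control arrays.

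The other receptors that rose did so by less. ENPP3, the basophil and mast cell surface enzyme CD203c, rose by 0.48, and its control array 3 (6.30) also reads under 6.42. CSF2RA, the alpha chain of the GM-CSF receptor, rose by 0.27, and SIGLEC6, a mast cell lectin named after its value was seen, by 0.27. ENPP3 lost its call without any single array other than PRL-3 5, and CSF2RA and SIGLEC6 lost theirs whichever array was left out (adjusted p of up to 0.126, 0.151 and 0.186, limma). CSF2RB, the beta chain shared by the IL-3, IL-5 and GM-CSF receptors, differed by -0.57 ± 0.18 (SE; adjusted p = 0.109, limma) and passed without PRL-3 5 at -0.73 (adjusted p = 0.0377, in a range of 0.000339 to 1). FCER1A, the IgE-binding chain of the high-affinity IgE receptor, differed by 0.12 (adjusted p = 0.430, limma). MS4A2 and CCR3 had no probe set named here.

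Of 15 lipid mediator and histamine enzymes 1 rose, 0 fell and 14 did not pass, with a median difference of 0.03. A count of 1 in 15 is near the 4.39% higher among all probe sets with a symbol. ALOX5, 5-lipoxygenase, which starts leukotriene synthesis, read 6.80, 6.66 and 6.61 in control and 7.53, 7.89 and 7.44 in PRL-3 arrays. It rose by 0.93 ± 0.12 (SE; adjusted p = 0.00407, limma). ALOX5AP, which hands arachidonic acid to ALOX5, read 6.51, 6.47 and 6.12 in control and 6.66, 6.92 and 7.01 in PRL-3 arrays. Its control mean of 6.37 lies under 6.42, the 95th percentile of the olfactory receptor probe sets in the control arrays. Its difference of 0.50 ± 0.13 (SE) did not pass (adjusted p = 0.0596, limma), although the groups did not overlap. ALOX5AP was picked out with its value in view. PTGDS, the other prostaglandin D synthase, differed by -0.04 (adjusted p = 0.868, limma) and did not pass.

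Of 15 other granule and family genes 1 rose (MS4A3), 1 fell (RNASE1, above) and 13 did not pass, with a median of -0.03. Both counts are near the shares of all probe sets with a symbol, 4.39% higher and 3.20% lower. MS4A3, a four-span membrane protein of basophil and granulocyte progenitors, read 10.14, 10.13 and 10.05 in control and 11.00, 10.88 and 10.89 in PRL-3 arrays. It rose by 0.82 ± 0.07 (SE; adjusted p = 0.000676, limma). SRGN, serglycin, the proteoglycan on which granule proteases are packed, differed by 0.14 (adjusted p = 0.491, limma). CMA1, mast cell chymase, differed by -0.03 (adjusted p = 0.896, limma).

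**Figure D4:**
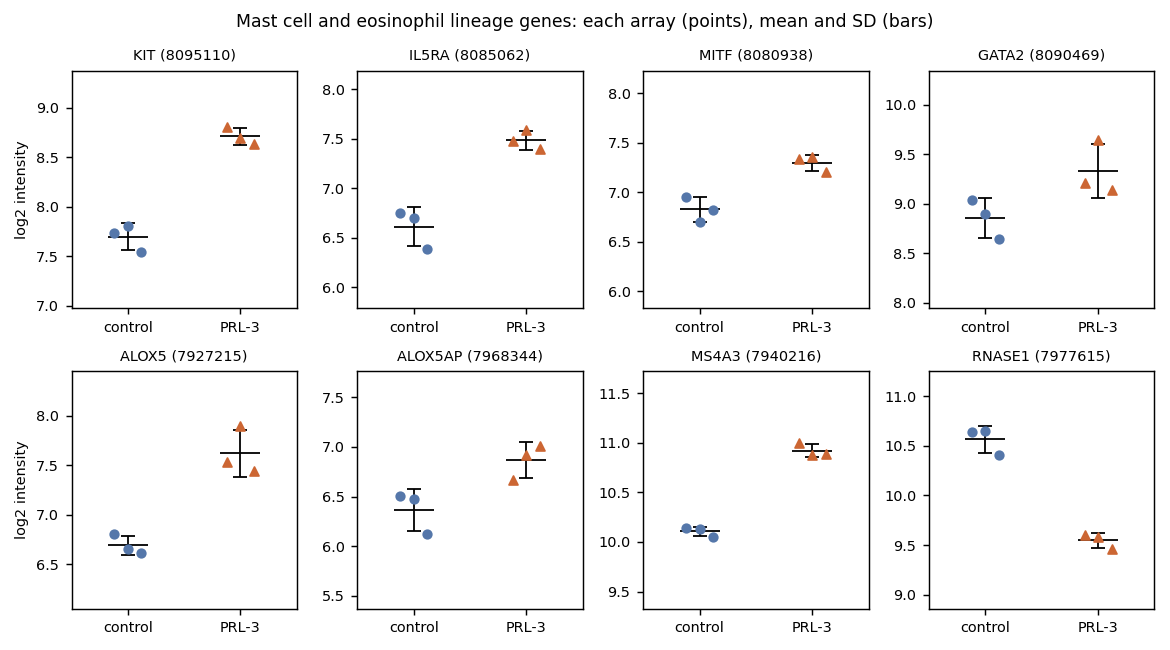
Log2 intensity on each array of KIT, IL5RA, MITF, GATA2, ALOX5, ALOX5AP, MS4A3 and RNASE1, 1 panel each (circles, 3 control arrays; triangles, 3 PRL-3 arrays; bars, mean and SD; every axis spans the same range as in the plot of the granule genes). RNASE1 is lower on all PRL-3 arrays and the other 7 are higher, and GATA2 and ALOX5AP did not pass the test.

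Of 18 transcription factors 2 rose, 0 fell and 16 did not pass, with a median of -0.06, beside 4.39% higher among all probe sets with a symbol. MITF, which drives mast cell genes such as tryptases and KIT, read 6.95, 6.70 and 6.82 in control and 7.33, 7.35 and 7.21 in PRL-3 arrays. It rose by 0.47 ± 0.09 (SE; adjusted p = 0.0162, limma), and lost its call without control 2 (adjusted p = 0.0758) or PRL-3 4 (0.0799), in a range of 0.000639 to 1 over all settings. ID2, an inhibitor of E-box-binding factors, rose by 1.01 ± 0.23 (SE; adjusted p = 0.0351, limma), with a wide spread in control (7.51, 7.19 and 6.63). ID2 lost its call without control 2, PRL-3 4, PRL-3 5 or PRL-3 6, with adjusted p of up to 0.121 in limma.

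GATA2, a factor of mast cell and basophil progenitors, read 9.04, 8.90 and 8.64 in control and 9.21, 9.65 and 9.14 in PRL-3 arrays. The groups did not overlap, and the difference of 0.47 ± 0.15 (SE) did not pass (adjusted p = 0.116, limma). GATA1, needed for eosinophils and red cells, differed by -0.08 ± 0.19 (SE; adjusted p = 0.886, limma). CEBPE, a factor of late eosinophil and neutrophil granule genes, differed by -0.04 (adjusted p = 0.845, limma).

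Granule genes of neutrophils and monocytes, as the nearest other cell types, rose in 0 of 20, fell in 1 and did not pass in 19, with a median of -0.01. Their summed intensity was 1977 to 2225 in control and 1899 to 2150 in PRL-3 arrays, and 13 of the 20 read under the 95th percentile of the olfactory receptors. The gene that fell was CST7, a cystatin (-0.32, adjusted p = 0.0484, limma), which lost its call without any single array other than control 3. Lymphocyte markers passed in 0 of 10, at a summed intensity of 642 to 705 in control and 671 to 676 in PRL-3 arrays. Fibroblast and epithelial markers passed in 0 of 11. Of all probe sets with a symbol 7.59% passed, and 0 or 1 call in lists of 10 to 20 genes is near that share.

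**Figure D5:**
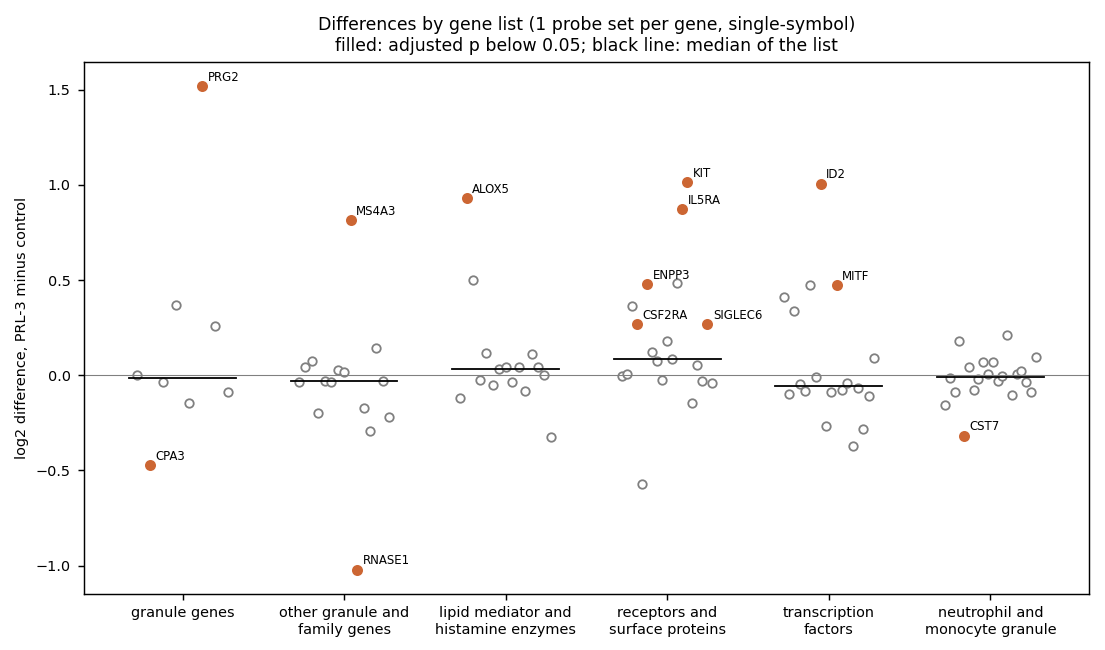
Log2 difference, PRL-3 minus control, of every gene with a probe set of its own in the granule gene list and in 5 other lists (filled and named, adjusted p below 0.05; open, not passed; black line, median of the list). The medians lie between -0.06 and 0.08. Among receptors and transcription factors, genes that passed and genes that did not overlap in size, as for MITF (passed) and GATA2 (not passed), both at 0.47.

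Likeness to PRG2's own probe set was read among the 1448 other probe sets with exactly 1 symbol that passed the test. Those most like it over the 6 arrays were TRIB1, MT2A, PRKAB2 and FYN. Their Pearson r was 0.9986, 0.9982, 0.9982 and 0.9976, and their differences were 0.72, 1.83, 0.62 and 1.15. The MT2A value came from probe set 8095362, 1 of 3 annotated to that gene. The 6 arrays fall in 2 groups, so any gene with a clear difference correlates with PRG2 here, and 63 of the 1448 reached r = 0.99. The ranking is a description of these arrays.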

How the data were processed

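Total RNA of 6 TF-1 cultures or extracts (3 control, 3 PRL-3) was labelled from 100 ng and read on whole-transcript arrays, per the labels' protocols. The deposited table holds 1 intensity per probe set and array on a linear scale. Since its medians lie close together, the values were treated as normalized. How the authors summarised, background-corrected and normalized them is not given in the sources used here. If the authors aligned the arrays, a shift common to most genes is lost, and each difference is read against the typical gene.

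Log2 was taken with no offset. Names came from the platform's annotation table: 19310 had 1 symbol, 1752 had several and 7807 had none here. Entrez identifiers of the members with a probe set of their own matched the RefSeq table. R 4.3.3 with limma 3.58.1 gave the comparison (functions lmFit, then eBayes; two-sided; Benjamini-Hochberg over 21062 probe sets with a symbol, threshold 0.05), after a run on simulated data. SE and 95% intervals are limma's moderated ones. In the lists a gene was read from its brightest probe set with no other symbol. The 6 arrays limit the precision, and the labels give no batch.

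The text names all 10 members, PTP4A3, a fixed set of lineage genes, up to 4 called genes with the largest differences of each pathway list, and the 4 genes most like PRG2. Outside this rule it names ALOX5AP and SIGLEC6, picked with their values in view, and neighbours of members in the gene order. It also names CST7, the called gene of the neutrophil and monocyte list. Red cell genes were named for the summed intensity of their list or for their differences. The members and lists were chosen with earlier results of these data known. Alternatives tried were quantile normalization, a median shift, an offset of 16, trend and robust variances, array weights, filters at the 25th percentile and the median, all probe sets, 1 probe set per gene, an unequal-variance test, a minimum fold of 1.5, any probe set of a gene and leaving out each array. The covariate for spread inside the groups, and leaving out control 1 together with PRL-3 5, were chosen after seeing the data. Figures were drawn with matplotlib 3.10.9.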

Additional observations from a re-analysis of the deposited data

How the results depend on the processing

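None of the member and lineage values past the threshold changed sign under any of the 19 settings fitted. Values near 0 that did not pass changed sign. CLC went to -0.069 with array weights and -0.078 without both control 1 and PRL-3 5, and without 1 array ran from -0.059 (PRL-3 5) to 0.036. Without 1 array, EPX ran from -0.094 to 0.022 (without PRL-3 5) and the tryptase probe set 7992181 from -0.085 to 0.00399 (without control 2); with array weights the latter was -0.124. Member probe sets called higher numbered 1, but 3 with array weights (PRG2, PRG3 and HDC), 2 with the within-group covariate (PRG2 and HDC) and 0 in the unequal-variance test. Those called lower numbered 1, but 2 with array weights and 2 with the covariate (CPA3 and the set shared by SLC43A3 and PRG2), and 0 in the unequal-variance test, with a minimum fold of 1.5 and above the median level, where CPA3 is not in the fit. Leaving out 1 array gave 0 to 1. The count by the brightest probe set was 0 higher, with 2 under array weights, 1 under the covariate, 1 with 1 probe set per gene and 1 by any probe set. It was 1 lower, with 2, 2, 0, 0 and 0 under the 5 settings named for the lower calls and 0 to 1 without 1 array. Among all probe sets with a symbol, 925 were higher and 673 lower. Array weights gave 2430 and 2710, the covariate 2240 and 2094, the unequal-variance test 7 and 5 (3063 at an unadjusted p under 0.05) and the minimum fold 49 and 7. Without 1 array, 422 (control 2) to 865 were higher and 210 (control 2) to 848 lower, from fewer samples; without PRL-3 4 or PRL-3 6, 432 and 475 were higher and 218 and 249 lower, and without control 1, 339 were lower. No other cause was tested. The labels do not say whether control and PRL-3 arrays are paired, so no paired analysis was made. With no detection call, changes at low intensity are limited by the probes' background.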
